A study of Mus musculus with 80 samples.

Results

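Motile cilium genes, the genes that build and drive the beating cilia of ciliated airway cells, were followed in whole lungs of mice that had breathed styrene. The set was a given list of 44 genes, of which 40 had a probe set carrying that gene as its only symbol, among 17097 genes named this way on the array. Dnah7b, Tekt4, Ak9 and Mcidas had no such probe set and have no value here. Of the 40, 39 passed the filter on low signal that left 11406 genes for testing. Spag6, a central pair protein gene, did not pass, since none of its 80 values exceeded 4.28, the median over all probe sets and arrays. Its close copy Spag6l, which is not in the set, had group means from 7.22 to 7.41 in C57Bl/6 WT lungs. Spag17 passed through only 7 arrays, Dnaic2 and Ccno through 31 each and Rfx3 through 61.

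The animals were adult male mice of 4 strains: C57Bl/6 WT (WT), the CYP2F2 knockout (KO), the CYP2F1 humanized line (TG) and the outbred stock CD-1. The labels name C57Bl/6 for KO and TG as well. Each strain was exposed once for 6 h to air (0 ppm) or to styrene at 10, 40 or 120 ppm, and the lungs were taken the next morning. Each of the 16 groups held 5 animals that the labels call biological replicates, so p-values measure the spread between these animals. Styrene is oxidised in the mouse airway by CYP2F2, an enzyme of club cells, and CYP2F1 is the human member of that family. The sources used here do not give the promoter of the human gene, the deleted part of mouse Cyp2f2 or whether TG mice lack it. The Cyp2f2 probe set read 12.04 to 13.27 in WT and 12.5 to 13.14 in CD-1, and 11.51 to 11.89 in KO and 11.48 to 12.0 in TG. It was thus lower in both engineered strains but far above the table's median there, so without knowing the deleted part this probe set does not check the labels. All values below are deposited log2 signals, on which a difference of 1 is a doubling, and the level of one probe set cannot be set against that of another.

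Motile cilia carry an axoneme of microtubule doublets around a central pair. Outer and inner dynein arms on the doublets slide them past each other, while radial spokes, the nexin-dynein link and the central pair shape the beat. The transcription factors FOXJ1 and the RFX family switch these genes on together as an airway cell grows its cilia. In whole lung, where ciliated cells are few, fewer ciliated cells and less RNA per ciliated cell cannot be told apart. As a check of the lung label, the club cell secretoglobin Scgb1a1 stood at a mean of 13.82 in WT air lungs and the epithelial gene Epcam at 9.93.

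In WT mice, part of the motile cilium genes were lower after styrene and none were higher. At 10 ppm 4 of the 39 fell (4.9% of all tested genes did), at 40 ppm 16 (12.4%) and at 120 ppm 12 (9.65%), at an adjusted p below 0.05 by limma with Benjamini-Hochberg adjustment over all 11406 genes. The shares of all tested genes that rose were 7.67%, 13.7% and 14.3%, and no member was among them. Averaged over the 3 doses 18 fell (13.3% of all genes) and none rose (16.3%). The median change of the 39 was -0.19 at 10 ppm, -0.28 at 40 ppm and -0.33 at 120 ppm, against 0.00, -0.01 and 0.02 over all tested genes. Of the 39, 32, 34 and 37 had a change below 0 at the 3 doses. Of all 11406 tested genes 5788, 5857 and 5326 did. The 3 doses share the same 5 air controls, so these counts are not independent of each other.

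By dose, 18 members fell at 1 or more doses and 21 at none. Tekt2, Tppp3, Lrrc23 and Dnah6 fell at all 3 doses. Ccno, Ttc25, Dnah12, Dnah2, Zmynd10 and Hydin fell at 40 ppm alone, and Rfx2 and Dnah5 at 120 ppm alone. That the other doses missed the threshold does not show that those genes differed between doses. Between doses, no member differed between 40 and 10 ppm (0.622% of all genes were lower at 40 ppm). There 8 members, and 1748 of all 11406 genes, had an unadjusted p below 0.05 by limma. Without 40 ppm replicate 5, 3 members differed. No member differed between 120 and 40 ppm either (0% of all genes in each direction). There 1 member, and 839 of all 11406 genes, had an unadjusted p below 0.05 by limma. Between 120 and 10 ppm only Rfx2 was lower (0.281% of all genes were), by 0.48, a call lost without any 1 of 7 of the 10 arrays compared.

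**Figure D1:**
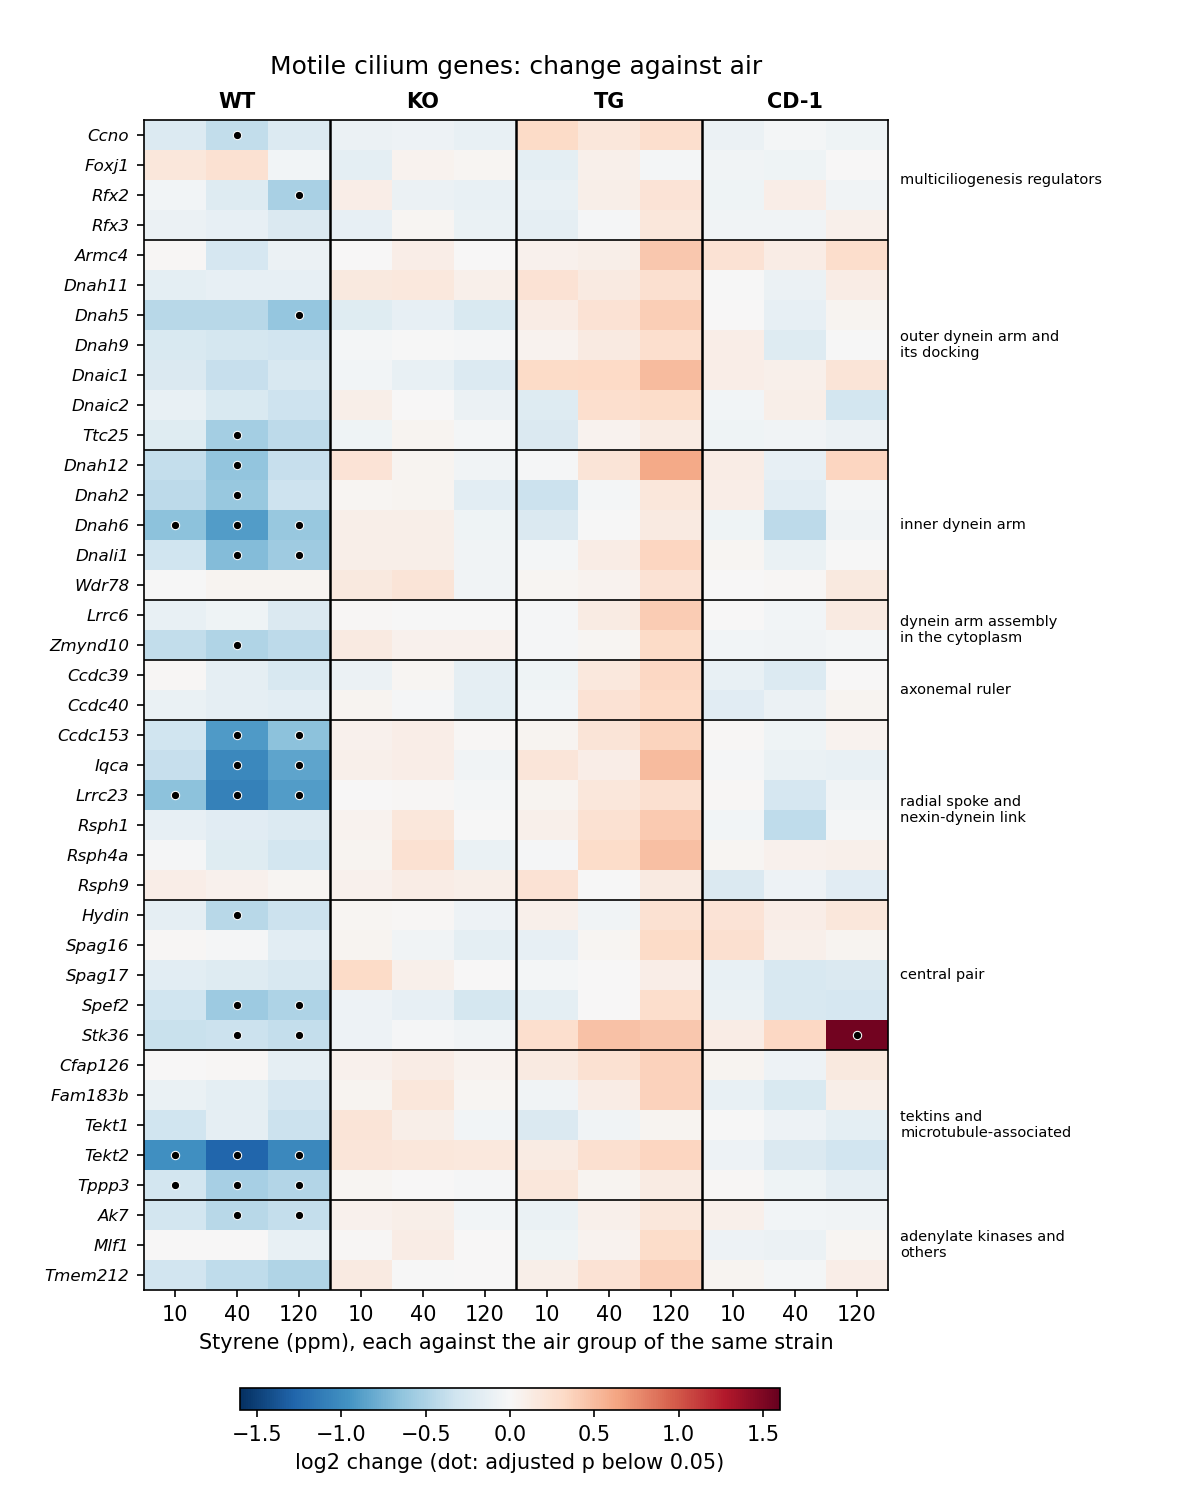
Log2 change from the air group of the same strain for the 39 tested motile cilium genes (rows, by role) at 10, 40 and 120 ppm in each of the 4 strains (columns), by colour; a dot marks an adjusted p below 0.05. The WT columns carry nearly all dots, with 4, 16 and 12 lower genes, and the only other dot is Stk36 in CD-1 at 120 ppm, which was higher.

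Of the 4 regulators 1 fell at 40 ppm and 1 at 120 ppm (12.4% and 9.65% of all genes did). Whether the regulators differed from each other was not tested. Foxj1, the factor that starts the motile cilium program, read 7.51, 7.97, 7.57, 7.30 and 7.36 in the 5 WT air lungs. It read 7.52, 7.03, 8.29, 7.78 and 8.0 at 10 ppm, 7.26, 7.77, 7.84, 7.95 and 8.14 at 40 ppm, and 7.44, 7.56, 7.32, 7.82 and 7.35 at 120 ppm. The exposed arrays overlapped the air arrays at every dose, reaching past them on both sides at 10 and 40 ppm and lying within their range at 120 ppm. The changes of Foxj1 were 0.18, 0.25 and -0.05 (95% intervals -0.23 to 0.59, -0.16 to 0.66 and -0.45 to 0.36), with adjusted p of 0.592, 0.372 and 0.894 by limma.

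Rfx2, a factor of the RFX family that binds the X-box of ciliary promoters, read 5.87, 6.10, 5.97, 5.81 and 5.77 in air. At 120 ppm it read 5.34, 5.47, 5.41, 5.44 and 5.26, so that all 5 lay below all air arrays. The change at 120 ppm was -0.52 ± 0.11 (SE; limma adjusted p = 0.00177), while at 10 and 40 ppm the groups overlapped, with changes of -0.04 and -0.21. Rfx3, the other RFX factor, had changes of -0.14 at 40 ppm and -0.23 at 120 ppm (95% intervals -0.33 to 0.06 and -0.42 to -0.04), neither of which passed the test. Ccno, a cyclin needed to multiply centrioles before cilia form, fell by 0.40 at 40 ppm (limma adjusted p = 0.022). Its mean over 80 arrays was 4.15 and it passed the low-signal filter through only 31, so the size of this fall is not exact.

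Among the microtubule-associated genes, Tekt2, which codes for a tektin filament protein of the doublets, had the lowest p of all members. Its signal in WT air lungs was 5.90, 5.99, 6.10, 6.00 and 6.09. It was 4.86, 4.93, 5.33, 5.21 and 4.85 at 10 ppm, 4.41, 4.51, 4.75, 4.74 and 5.31 at 40 ppm, and 4.78, 5.05, 4.86, 5.31 and 4.93 at 120 ppm. All 15 exposed arrays lay below all 5 air arrays. The changes were -0.98, -1.27 and -1.03 (SE 0.14 at each dose), with adjusted p of 6.54e-05, 2.6e-06 and 3.3e-05 by limma. The fall at the lowest dose was thus near that at the highest, and no difference between doses passed the test for this gene.

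Tppp3 codes for a tubulin polymerization-promoting protein found in ciliated cells. It read 11.05, 11.03, 11.01 and 11.04 in 4 air lungs and 11 in the fifth. At 10 ppm the arrays read 10.55, 10.82, 10.90, 10.85 and 10.52, at 40 ppm 10.45, 10.47, 10.29, 10.56 and 10.67, and at 120 ppm 10.52, 10.69, 10.59, 10.57 and 10.45. Every exposed array lay below every air array, and the changes were -0.30, -0.54 and -0.46 (SE 0.08; limma adjusted p 0.0142, 6.79e-05 and 0.000308). Tekt1, the other tektin measured, had changes of -0.14 at 40 ppm and -0.35 at 120 ppm (95% intervals -0.52 to 0.23 and -0.72 to 0.03) and passed at no dose. Cfap126 and Fam183b of the same group did not pass at any dose either, with 120 ppm changes of -0.15 and -0.27.

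**Figure D2:**
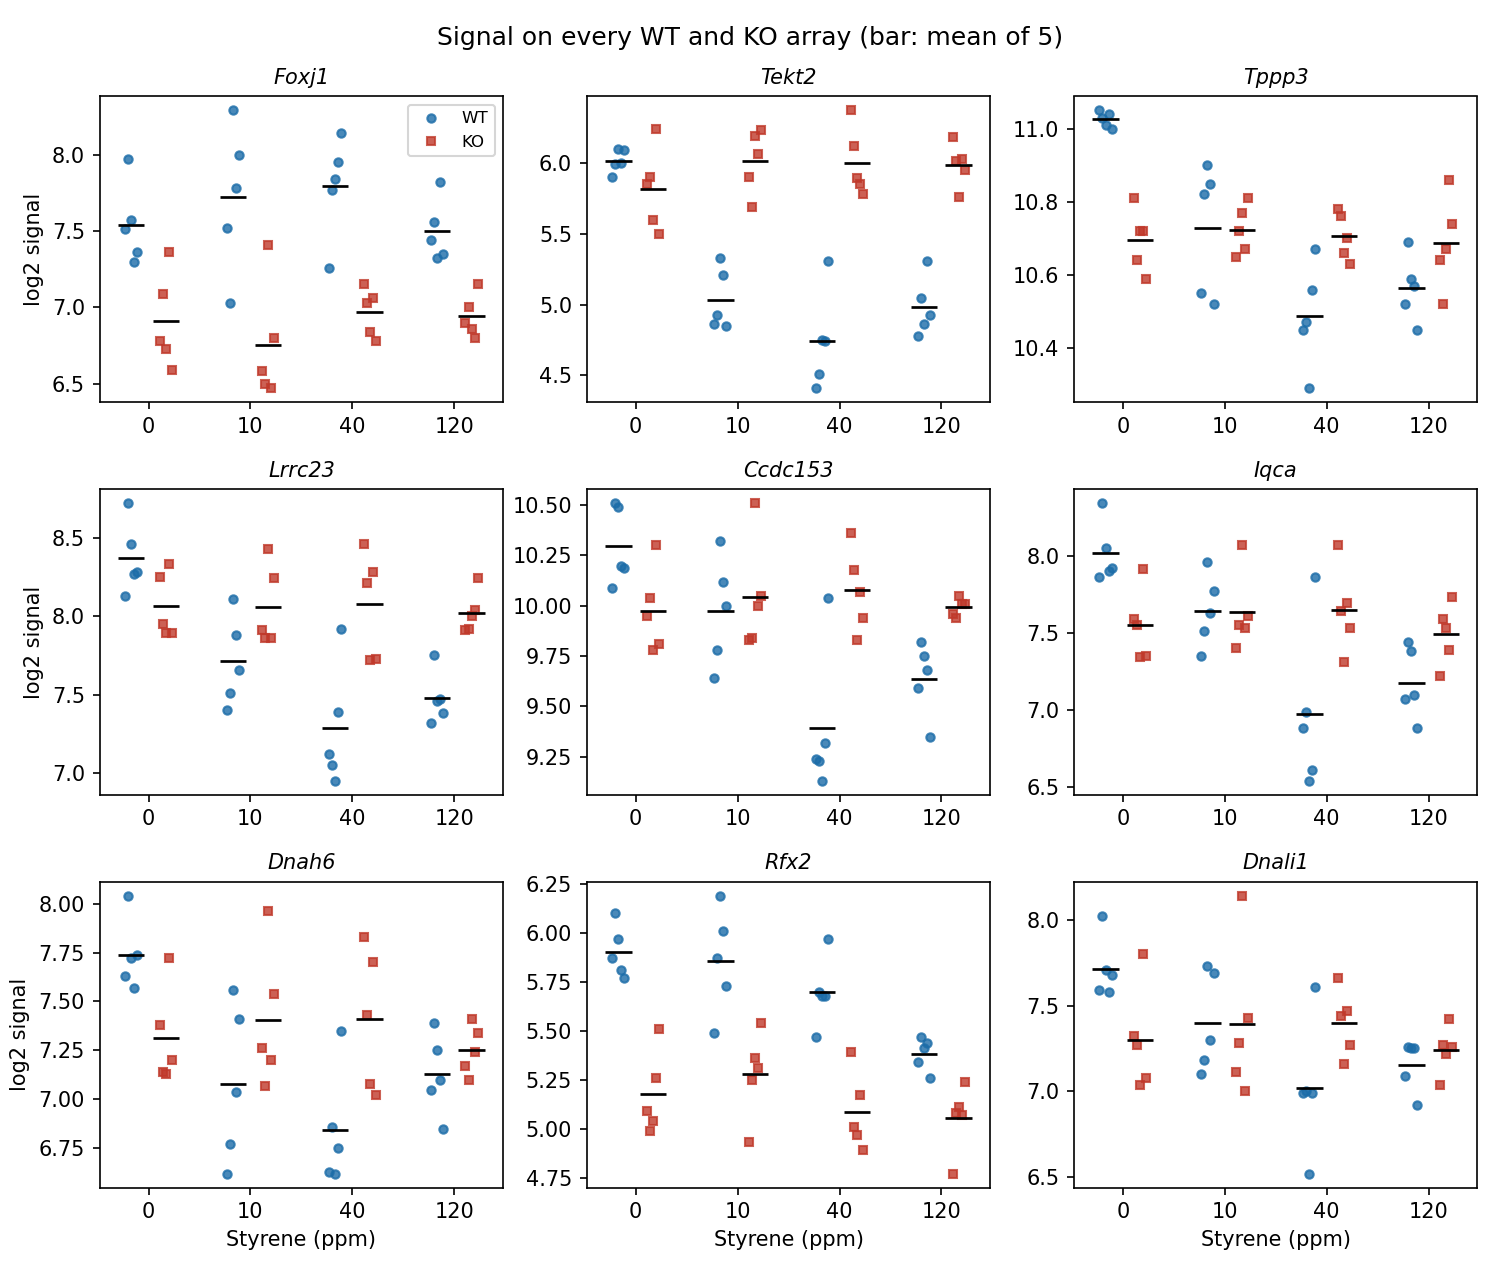
Log2 signal (y axis) of 9 motile cilium genes on every WT and KO array against styrene dose in ppm (x axis), with a point per animal (n = 5 per group) and a bar at each group mean. In WT, Tekt2 and Tppp3 stand below all air arrays at each styrene dose and Foxj1 overlaps the air arrays at each dose, while the KO groups of Tekt2 overlap.

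In the radial spoke and nexin-dynein link group, 3 of 6 genes fell at 40 ppm (12.4% of all genes) and 3 at 120 ppm (9.65%). Lrrc23, a radial spoke component, read 8.13, 8.72, 8.46, 8.27 and 8.28 in air and 7.40, 7.51, 8.11, 7.88 and 7.66 at 10 ppm. It read 7.12, 7.05, 6.95, 7.39 and 7.92 at 40 ppm and 7.32, 7.75, 7.46, 7.47 and 7.38 at 120 ppm. All exposed arrays were below all air arrays, at changes of -0.66, -1.09 and -0.90 (SE 0.16; limma adjusted p 0.0111, 0.000106 and 0.000688).

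Ccdc153, of the nexin-dynein link, read 10.09, 10.51, 10.49, 10.20 and 10.19 in air. It read 9.24, 9.23, 9.13, 9.32 and 10.04 at 40 ppm and 9.59, 9.82, 9.75, 9.68 and 9.35 at 120 ppm. Both groups lay wholly below the air arrays, at -0.91 and -0.66 (SE 0.16; limma adjusted p 0.000366 and 0.00493), while at 10 ppm the change of -0.32 did not pass. Iqca, of the same link, read 7.86, 8.34, 8.05, 7.90 and 7.92 in air and 6.88, 6.99, 6.54, 6.61 and 7.86 at 40 ppm. Its 40 ppm change was -1.04 (SE 0.19; limma adjusted p = 0.000651), with replicate 5 level with the lowest air array, and its 120 ppm change was -0.84 with no overlap. A second Iqca probe set gave -0.52 at 40 ppm and -0.40 at 120 ppm, in the same direction and smaller. The spoke head genes Rsph1, Rsph4a and Rsph9 had changes at 40 ppm of -0.18, -0.20 and 0.06 and passed at no dose.

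Of the inner dynein arm genes 4 of 5 fell at 40 ppm (12.4% of all genes) and 2 at 120 ppm (9.65%). The heavy chain gene Dnah6 read 7.63, 8.04, 7.72, 7.57 and 7.74 in air, 6.62, 6.77, 7.56, 7.04 and 7.41 at 10 ppm, and 6.63, 6.86, 6.62, 6.75 and 7.35 at 40 ppm. At 120 ppm it read 7.05, 7.39, 7.25, 7.10 and 6.85. Each exposed group lay below all air arrays, and the changes were -0.66, -0.90 and -0.61 (SE 0.17; limma adjusted p 0.0132, 0.000752 and 0.0125). Dnali1, the light intermediate chain, read 7.59, 8.02, 7.71, 7.58 and 7.68 in air and 7.09, 7.26, 7.25, 7.25 and 6.92 at 120 ppm, a change of -0.57 without overlap (limma adjusted p = 0.0137). At 40 ppm its change was -0.70 with 1 overlapping array, and a second probe set gave -0.43. The heavy chains Dnah2 and Dnah12 fell at 40 ppm by 0.60 and 0.63, and Wdr78, an inner arm intermediate chain, had a change of 0.05 (95% interval -0.26 to 0.35).

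Of the outer arm and docking genes 1 of 7 fell at 40 ppm and 1 at 120 ppm, counts near the background shares of 12.4% and 9.65%. Ttc25, a docking complex gene, fell by 0.55 at 40 ppm (limma adjusted p = 0.0271). Dnah5, an outer arm heavy chain gene often mutated in primary ciliary dyskinesia, read 6.43, 6.83, 6.85, 6.62 and 6.81 in air and 5.90, 6.32, 6.44, 6.18 and 5.60 at 120 ppm, a change of -0.62 (limma adjusted p = 0.0162). Its highest array at 120 ppm stood level with its lowest air array. The heavy chains Dnah9 and Dnah11 had changes of -0.28 and -0.14 at 40 ppm, and the intermediate chains Dnaic1 and Dnaic2 of -0.37 and -0.25, none past the threshold. All 7 changes at 40 ppm and all 7 at 120 ppm were below 0. Whether outer and inner arm genes differed from each other was not tested.

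Of the central pair genes 3 of 5 fell at 40 ppm (12.4% of all genes) and 2 at 120 ppm (9.65%). Spef2, a projection protein gene, fell by 0.58 at 40 ppm and 0.49 at 120 ppm, and Stk36, a kinase family member of the central pair, by 0.34 and 0.38. Hydin, a giant central pair protein gene, fell by 0.45 at 40 ppm (limma adjusted p = 0.0269). Spag16 and Spag17 passed at no dose. Of the genes that assemble dynein arms in the cytoplasm, Zmynd10 fell by 0.49 at 40 ppm and Lrrc6 had a change of -0.07. The axonemal ruler genes Ccdc39 and Ccdc40, which set the spacing of spokes and arms, both had changes of -0.15 at 40 ppm, with 95% intervals of -0.48 to 0.19 and -0.50 to 0.20.

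Of the remaining members the adenylate kinase gene Ak7 fell by 0.44 at 40 ppm and 0.39 at 120 ppm. Mlf1 had changes of 0.01 and -0.12, and Tmem212 of -0.40 and -0.48 with adjusted p of 0.0989 and 0.0532 by limma. At 10, 40 and 120 ppm 4, 5 and 10 members lay wholly below the air arrays, against 4.16%, 8.28% and 7.85% of all tested genes. At 40 ppm replicate 5 had the highest signal of its group in 37 of the 39 members. The median of the 39 against the air mean was 0.06 in that lung and -0.51 to -0.26 in the other 4. Without it 21 members fell at 40 ppm, in place of 16. For fits that leave out arrays, here and elsewhere, the share of all tested genes called was not computed. In the air group, which all doses share, replicate 2 had the highest signal in 32 of the 39 members. Without air replicate 2, or without 40 ppm replicate 3, the count at 40 ppm was 10. The 6 calls lost were Dnah12, Hydin, Stk36, Ccno, Zmynd10 and Ttc25. At 120 ppm the count was 8 without 120 ppm replicate 5, with Ak7, Spef2, Stk36 and Dnah5 lost, and at 10 ppm the call of Tppp3 was lost without 10 ppm replicate 5 (limma adjusted p = 0.0511).

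A single animal standing highest across the set was common: in 7 of the 16 groups 1 array was highest for 30 or more members. After each group's mean was taken off, the median Pearson correlation between 2 members was 0.58 over the 80 arrays (741 pairs, 99.2% of them above 0), against -0.02 between a member and other genes. It was 0.72 in the WT arrays, 0.63 in KO and 0.59 in both TG and CD-1. Ccdc153 followed the other members most closely, at a median of 0.75, and Ccno least, at 0.11, with Rfx2 at 0.21, Tppp3 at 0.37 and Tekt2 at 0.39. All members of a point share 1 RNA sample and 1 array, and these values describe only variation between animals of a group.

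The 40 members on the array were searched for the RFX half-site GTTGCC, on either strand, in the 250 bases before and 50 after the start of transcription, as RefSeq gives them for GRCm38.p6. A window was matched for 32 of the 40 members, and Armc4, Foxj1, Lrrc6, Rsph1, Rsph4a, Tppp3, Ttc25 and Wdr78 had none. The half-site stood in 17 of the 32 (53.1%), against 14.1% of all 27025 genes with a window. It stood in 10 of 16 members that fell in WT (62.5%) and in 6 of 15 that did not (40.0%). Whether these shares differ was not tested. The forkhead motif GTAAACA stood in 2 of the 32, Ak7 and Mlf1, or 6.2% against 4.1% of all genes. A match of letters is not evidence of binding. The 250 bases before the start of 4 genes that fell in WT and hold the half-site are shown 5′ to 3′ on the gene's strand, with the half-site or its reverse complement in capitals, from chr4:126325689-126325938 (- strand, Tekt2), chr1:90153437-90153686 (- strand, Iqca), chr9:44240427-44240676 (+ strand, Ccdc153) and chr17:56831009-56831258 (- strand, Rfx2).
Tekt2: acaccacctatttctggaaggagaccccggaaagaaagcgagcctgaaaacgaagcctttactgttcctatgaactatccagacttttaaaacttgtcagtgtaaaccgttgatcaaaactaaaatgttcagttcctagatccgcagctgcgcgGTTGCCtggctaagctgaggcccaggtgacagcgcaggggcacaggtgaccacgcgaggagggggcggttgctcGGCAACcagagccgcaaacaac
Iqca: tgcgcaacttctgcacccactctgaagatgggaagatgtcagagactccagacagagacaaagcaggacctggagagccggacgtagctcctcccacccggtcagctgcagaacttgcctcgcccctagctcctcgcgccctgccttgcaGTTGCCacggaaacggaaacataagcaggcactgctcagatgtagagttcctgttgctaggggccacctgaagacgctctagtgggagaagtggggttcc
Ccdc153: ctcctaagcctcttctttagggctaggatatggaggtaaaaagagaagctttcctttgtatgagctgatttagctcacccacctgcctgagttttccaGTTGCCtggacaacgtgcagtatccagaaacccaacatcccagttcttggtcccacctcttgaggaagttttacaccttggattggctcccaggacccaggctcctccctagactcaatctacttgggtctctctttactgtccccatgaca
Rfx2: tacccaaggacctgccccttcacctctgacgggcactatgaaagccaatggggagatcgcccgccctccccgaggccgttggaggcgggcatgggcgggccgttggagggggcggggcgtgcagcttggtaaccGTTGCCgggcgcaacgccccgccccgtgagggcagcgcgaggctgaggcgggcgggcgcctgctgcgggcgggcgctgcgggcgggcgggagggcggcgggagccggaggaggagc
The sites lay 96 and 22 bases before the start in Tekt2, 100 in Iqca, 152 in Ccdc153 and 116 in Rfx2. Lrrc23 held sites at 157 and 39 bases before its start. Dnah6 and Dnali1, which also fell, held no half-site in their windows.

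Other ciliary genes, outside the set, were measured in the same WT lungs. Of 47 further motile cilium genes 2, 9 and 12 fell and 1, 2 and 2 rose at 10, 40 and 120 ppm, with medians of -0.10, -0.14 and -0.25. The shares of all tested genes were 4.9%, 12.4% and 9.65% lower and 7.67%, 13.7% and 14.3% higher, so fewer of these genes rose than the background shares give. Cfap57, needed for inner arm assembly, had changes of -0.54, -1.13 and -0.72, and Cfap43 and Cfap65 fell by 0.89 and 0.65 at 40 ppm. Cfap45 and Cfap52, proteins inside the doublet microtubules, were higher at 40 ppm by 0.53 and 0.63. Of 27 genes of intraflagellar transport, which carries parts into cilia of all kinds, 1, 5 and 5 fell and 2 rose at each dose, the latter at or below the shares of all tested genes. Wdr19 rose by 1.43, 1.00 and 1.14 and Ift172 by 0.41, 0.41 and 0.36.

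Markers of other airway cells were measured in the same WT lungs. There 4.9%, 12.4% and 9.65% of all tested genes fell at 10, 40 and 120 ppm, and 7.67%, 13.7% and 14.3% rose. Of 18 club cell markers 6, 15 and 12 fell and 1 rose at 10, 40 and 120 ppm, with medians of -0.31, -0.86 and -0.70. Their mean level per array ran from 10.33 to 10.70 in air, 9.99 to 10.49 at 10 ppm, 9.50 to 10.17 at 40 ppm and 9.68 to 10.09 at 120 ppm. Cyp2f2 itself fell by 0.97 at 40 ppm, and Scgb1a1, near the top of the array's range, by 0.12. Of 11 goblet and gland markers 0, 5 and 1 fell, so only the count at 40 ppm stood above the share of all genes. The mean level of these 11 markers ran from 7.38 to 8.70 in air and from 6.25 to 8.33 at 40 ppm. Bpifb1, a secreted airway protein gene, fell by 2.30 and the mucin gene Muc5b by 2.14 at 40 ppm.

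Of 4 cartilage markers of the large airways 0, 1 and 1 fell (4.9%, 12.4% and 9.65% of all tested genes did), with medians of -0.39, -0.33 and -0.21. The 1 was the cartilage matrix gene Chad, which changed by -2.47 at 40 ppm and -1.77 at 120 ppm. In the 40 ppm lungs Chad read 5.74, 5.77, 5.79, 6.28 and 7.97, and the array at 7.97 was replicate 5, the same one in which the cilium genes stood highest. Muc5b in that lung read 8.18 and in the other 4 from 4.89 to 6.73. Of 14 general epithelial genes 3, 6 and 7 rose, where 7.67%, 13.7% and 14.3% of all tested genes did. Of the same 14, 0, 1 and 1 fell, below the shares of all genes, and Epcam had a change of -0.03 at 40 ppm. Of 9 smooth muscle markers 2, 3 and 4 rose, against the same shares of all genes that rose, and none fell. Their median was 0.41 at 120 ppm, where the smooth muscle actin gene Actg2 rose by 1.34. The basal cell gene Krt5 read 8.13 in air replicate 1 and 7.62 in 40 ppm replicate 3, and at most 4.87 in the other 18 WT arrays. Without those 2 lungs the cilium members that fell numbered 4, 11 and 13, and the share of all tested genes was not computed. No marker list was at 0 in any group, and the part of these cell types in the fall of the cilium genes was not tested.

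**Figure D3:**
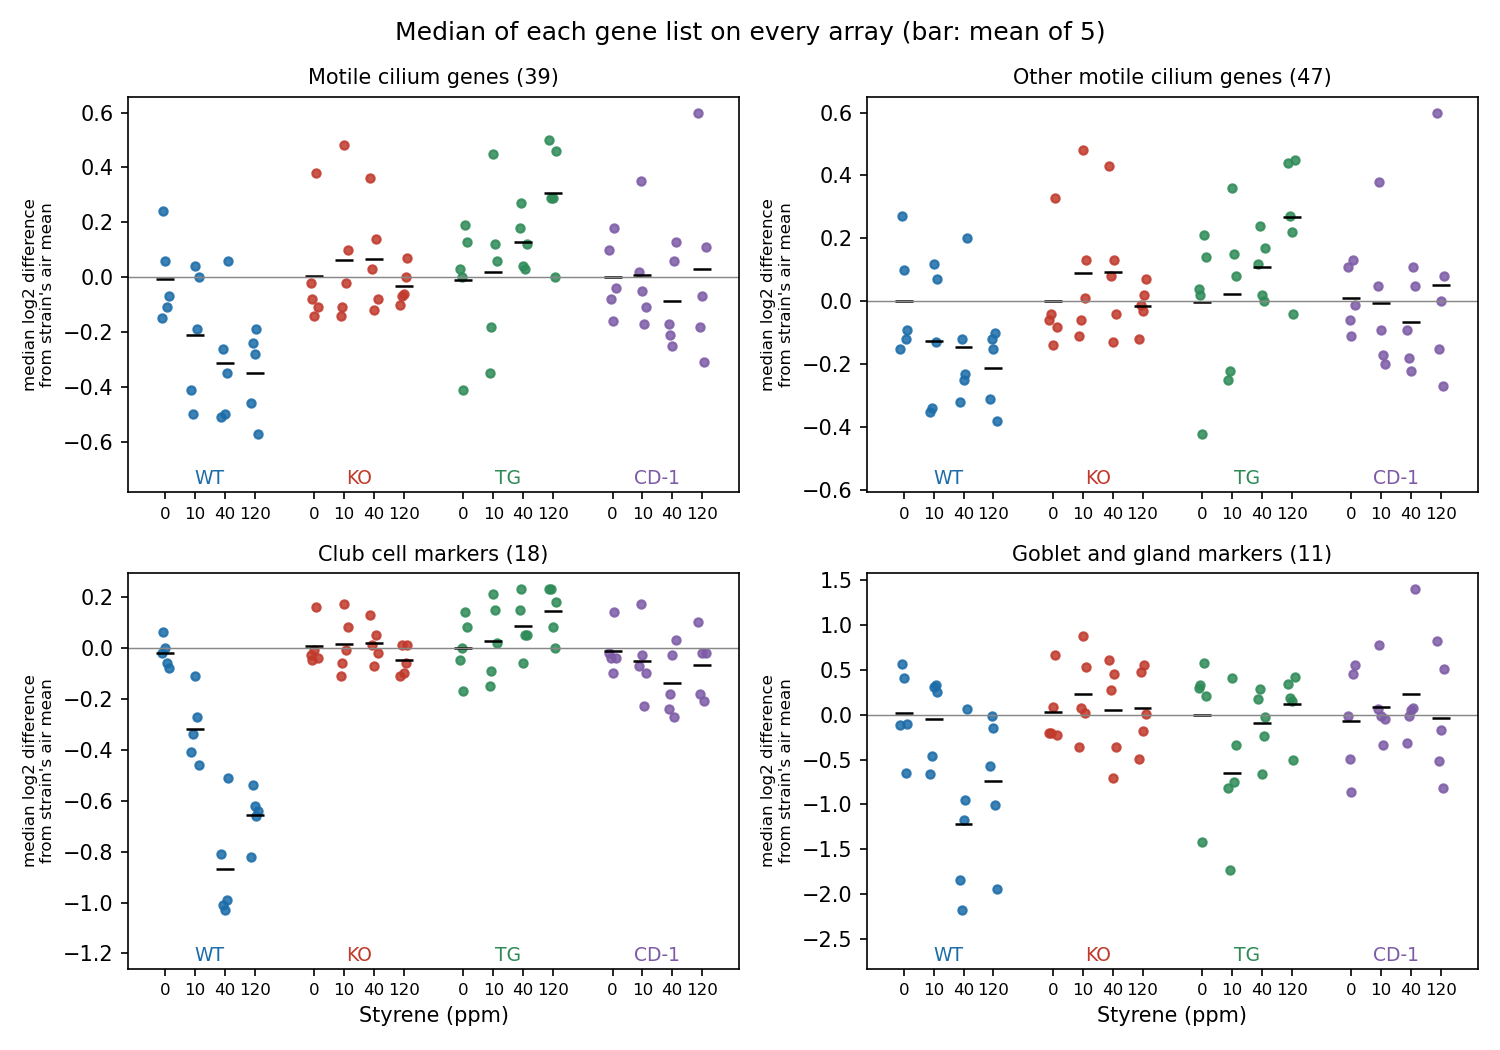
Median log2 difference from the air mean of the same strain (y axis), on every array, for 39 motile cilium genes, 47 other motile cilium genes, 18 club cell markers and 11 goblet and gland markers, by strain and styrene dose in ppm (x axis; bar, mean of 5). In WT at 40 ppm the cilium median ran from -0.51 to 0.06, the club cell median from -1.03 to -0.51 and the goblet and gland median from -2.18 to 0.06.

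In KO lungs no member passed the test at any dose by limma (0% of all genes did in either direction). At an unadjusted p below 0.05 by limma there were 2, 1 and 0 members at 10, 40 and 120 ppm (649, 564 and 596 of all 11406 genes). The median changes of the 39 were 0.05, 0.05 and -0.05. Tekt2 read 5.50 to 6.24 in KO air lungs and 5.69 to 6.23, 5.78 to 6.37 and 5.76 to 6.18 at the 3 doses, so all groups overlapped. Lrrc23 had KO means of 8.06, 8.06, 8.08 and 8.02 and Ccdc153 of 9.98, 10.05, 10.08 and 9.99, from air to 120 ppm.

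In TG lungs no member passed either (at 120 ppm 0.0614% of all genes rose and 0.00877% fell, and none did at 10 or 40 ppm). At an unadjusted p below 0.05 by limma there were 2, 2 and 15 members (1579, 867 and 1439 of all 11406 genes). At 120 ppm 38 of the 39 members stood above air, with a median of 0.30 against 0.06 over all genes. Of all 11406 tested genes 3591 stood below air at that dose, so most genes stood above it. Array medians were not taken off for these dose changes. TG air replicate 4 had the lowest array median of all, 3.84, with the next in TG at 4.07. TG air replicate 3 had the lowest signal of its group in 30 of the 39 members. Dnaic1 had the lowest p at 120 ppm, at 0.50 (95% interval 0.22 to 0.78; limma adjusted p = 0.13). Tekt2 read 5.64 to 6.18 in TG air lungs and 5.81 to 6.58 at 120 ppm, and Iqca 6.74 to 7.77 and 7.49 to 8.24. Both pairs of groups overlapped.

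In CD-1 lungs 1 member passed at 120 ppm and none at 10 or 40 ppm. At 10 and 40 ppm 0 and 2 members had an unadjusted p below 0.05 by limma (272 and 442 of all 11406 genes). Stk36 read 5.06, 5.03, 5.11, 4.87 and 5.48 in air and 7.24, 6.30, 6.14, 6.67 and 6.94 at 120 ppm. All 5 exposed arrays were above all air arrays, by 1.55 ± 0.24 (SE; 95% interval 1.05 to 2.05; limma adjusted p = 0.0186; 0.00877% of all genes rose). At 10 ppm it read 4.81 to 5.76 and at 40 ppm 4.82 to 6.31, both overlapping air. The call was lost without air replicate 1, 2 or 3 or without 120 ppm replicate 1 or 5, at adjusted p up to 0.0721. Tekt2 in CD-1 read 5.70 to 6.31 in air and 5.51 to 5.96 at 120 ppm.

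The WT change was then set against that of each other strain, in fits of 40 arrays that test the difference itself. Averaged over the 3 doses, the change was lower in WT than in KO for 8 members (7.79% of all genes), than in TG for 14 (8.84%) and than in CD-1 for 4 (2.15%). No member moved the other way in these averages, where 9.43%, 5.15% and 3.27% of all genes did. Tekt2, Tppp3 and Lrrc23 were among the called members in all 3 tests, which share the WT arrays. The Tekt2 difference was -1.28 against KO, -1.34 against TG and -0.88 against CD-1 (SE 0.16, 0.17 and 0.15; limma adjusted p 3.62e-07, 3.29e-07 and 0.00037).

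Tppp3 differed by -0.44, -0.55 and -0.36 and Lrrc23 by -0.88, -1.04 and -0.78 against KO, TG and CD-1. Ccdc153 differed by -0.69 and -0.83, Iqca by -0.79 and -1.02, and Dnah6 by -0.76 and -0.69 against KO and TG. Stk36 differed by -0.75 against TG and -1.02 against CD-1, where WT fell and CD-1 stood higher at 120 ppm. By dose the counts were 2, 8 and 5 against KO (3.11%, 6.83% and 4.39% of all genes), 3, 9 and 16 against TG (2.87%, 6.37% and 5.88%) and 1, 1 and 2 against CD-1 (0.368%, 0.824% and 1.67%). Without WT 40 ppm replicate 5 the counts at 40 ppm were 14 against KO, 16 against TG and 6 against CD-1. Averaged over doses, the count against KO was 13 without that lung or without KO air replicate 4, and against TG it was 8 without TG air replicate 3 or WT air replicate 2. Against CD-1 it was 7 without WT 40 ppm replicate 5 and 2 without WT air replicate 2. The 16 against TG at 120 ppm, 9 without TG 120 ppm replicate 5, WT air replicate 3 or WT 120 ppm replicate 5, combine WT changes below 0 with TG changes above 0: the medians there were -0.33 and 0.30. Between TG and KO no member differed at any dose (0% of all genes were lower and at most 0.0175% higher). There 0, 2 and 7 members had an unadjusted p below 0.05 by limma (1148, 902 and 1190 of all 11406 genes).

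**Figure D4:**
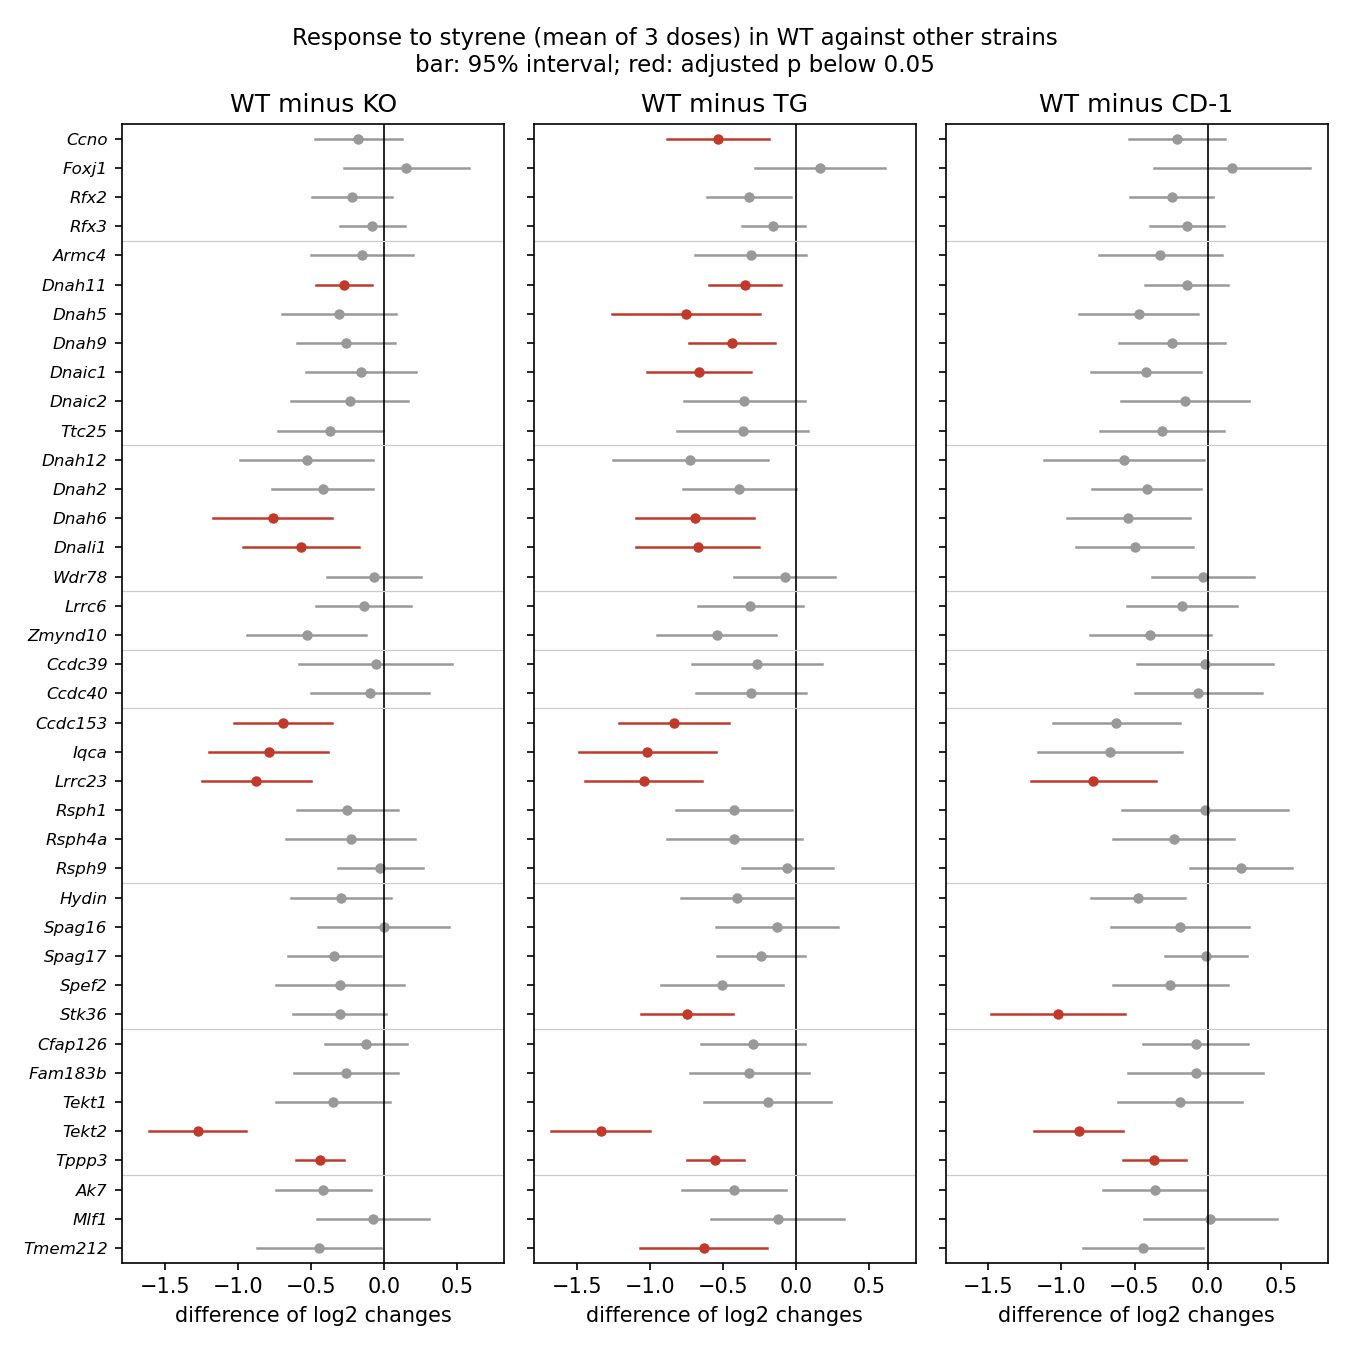
Difference in log2 change from air, averaged over 3 doses, between WT and each of KO, TG and CD-1 for each tested motile cilium gene, with 95% intervals; red points have an adjusted p below 0.05. Red points lie below 0 in every panel, 8 against KO, 14 against TG and 4 against CD-1, with Tekt2 furthest below 0 against KO and TG.

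The strains were also compared in air. Over all probe sets the WT arrays had the highest medians, 4.53 to 4.60, and no other strain's array exceeded 4.30. Each array's median over the tested genes was therefore taken off first. The sources used here do not say whether the strains were normalised together, and strain and any processing run cannot be told apart. On this scale CD-1 had 25 members lower than WT (15.1% of all genes were lower) and 1 higher (16.5%). The median of the 39 was -0.47, against 0.02 over all genes, and 21 members did not overlap (11.4% of all genes lay wholly lower). Hydin was lower by 0.76, Dnah5 by 1.04, Ccdc153 by 0.94 and Foxj1 by 0.58. The 25 include Dnaic2 and Spag17, which passed the low-signal filter through only 31 and 7 arrays. Dnaic2 read 3.26 to 3.89 in CD-1 air lungs, under the filter's 4.28, so the size of its difference is not exact, and with a filter of 40 arrays 23 of 36 members were lower. Tekt2, which fell in WT under styrene, was the 1 member higher in CD-1, by 0.36.

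In air KO had 3 members lower than WT (6.29% of all genes) and none higher (6.4%). At an unadjusted p below 0.05 by limma there were 8 members, and 3215 of all 11406 genes. Without KO air replicate 4, 6 members were called. The 3 were Spag17 by 0.61, Rfx3 by 0.38 and Rfx2 by 0.36. Spag17 passed the low-signal filter only through WT arrays, where it read 4.14 to 4.71 in air. Its passing thus favoured a lower value in KO, and likewise in CD-1. TG had 5 members lower than WT (16.3%), Dnah5 by 0.58, Ccdc39 by 0.55, Dnah12 by 0.49, Stk36 by 0.31 and Ccno by 0.31, and 2 higher (18.9%), Dnah2 by 0.57 and Rfx3 by 0.25. Both counts lie at or below what the background shares give. Ccno passed the filter through only 31 arrays, with a mean of 4.15 over 80 arrays, so the size of its difference is not exact. Without TG air replicate 4, whose array median of 3.84 was the lowest of all, 14 members were called, and without TG air replicate 3 there were 2. Between TG and KO 2 were higher (13.4%), Rfx3 by 0.63 and Dnah2 by 0.59, and 1 lower (12.6%), Dnah5 by 0.50. On the deposited scale, without taking off array medians, 34 members passed as lower than WT in KO, 33 in TG and 35 in the CD-1 lungs, where 74.6%, 79.6% and 48.6% of all genes did and the median gene stood at -0.36, -0.48 and -0.23, and Rfx3 turned to -0.23 in TG. Probe sets were designed on a reference sequence, and whether strain differences under the probes touch these values was not tested.

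**Figure D5:**
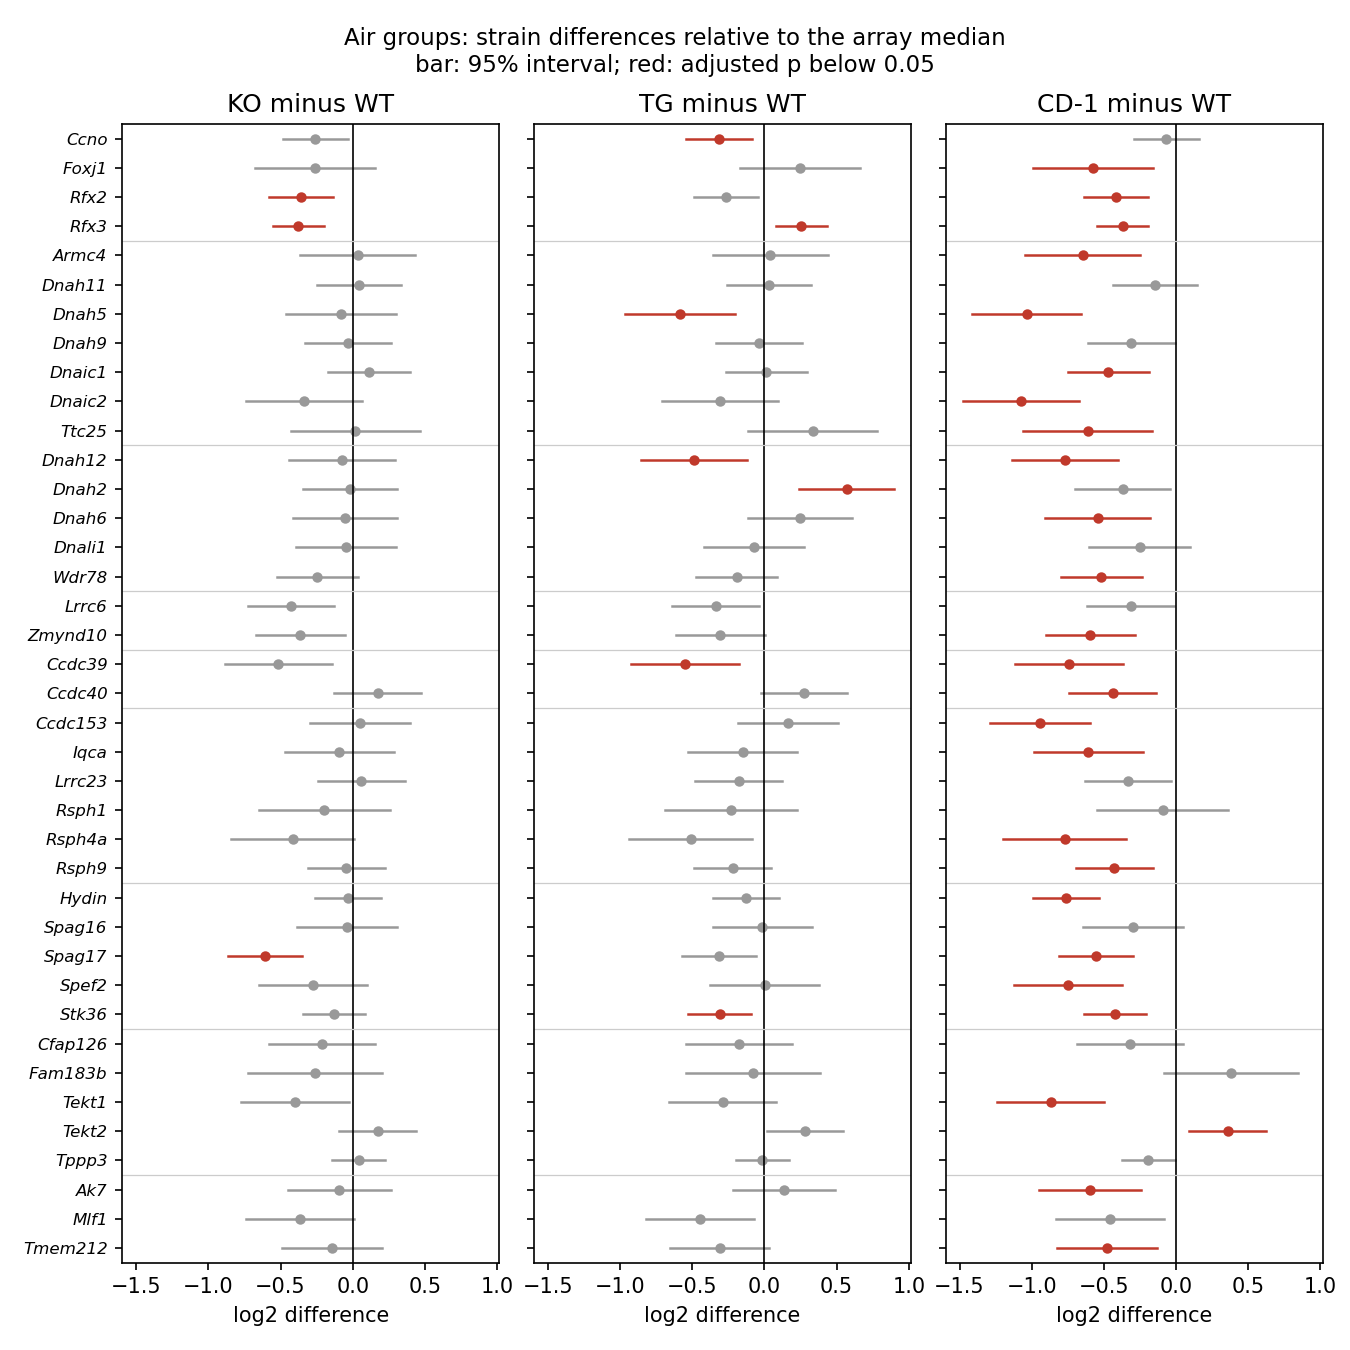
Difference in median-centred log2 signal from WT air lungs for each tested motile cilium gene in KO, TG and CD-1 air lungs, with 95% intervals; red points have an adjusted p below 0.05. In CD-1 25 members are red below 0 and 1, Tekt2, above 0, while KO has 3 and TG 7 red points.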

How the data were processed

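RNA of 80 whole lungs was labelled with the Affymetrix HT 3' IVT PLUS kit, 1 array per animal, per the labels' protocols. The deposited values are log2 signals of 45037 probe sets. The submitters' processing notes name RMA and Partek, and the sources used here give neither versions nor whether the strains were normalised together. The probe annotation gave a single symbol to 28898 probe sets and several to 551, and 15588 were absent from it. Symbols were updated through RefSeq (GRCm38.p6). Each of 17097 genes was represented by its probe set of highest mean over 80 arrays, and 11406 with a signal above 4.28 in at least 5 arrays were tested.

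The limma package (3.58.1, under R 4.3.3, with data.table for reading) fitted the models, whose scripts were tested on simulated data: each strain alone (20 arrays, 16 residual degrees of freedom), pairs of strains for differences in response (40 arrays, 32 degrees of freedom), and the air arrays with each array's median subtracted. A call is an adjusted p below 0.05 after Benjamini-Hochberg adjustment over all tested genes. Figures used matplotlib 3.10.9, with pandas 2.3.3 and numpy 2.4.6. The genes described array by array were Foxj1 and the 8 members with the lowest p over the 3 WT doses together; the others are given by role. The members and lists were chosen with earlier results of these data known, so counts within them are descriptions. Replicate numbers did not pair animals across doses: correlations of same-numbered arrays' deviations ran from -0.52 to 0.45, with medians from -0.02 to 0.05. Within groups arrays correlated at 0.978 to 0.9968 and none was a duplicate of another. Precision is limited by having 5 arrays in a group.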

Additional observations from a re-analysis of the deposited data

Results flagged for a closer look

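Over 160 sets of 5 values (9 named genes and the median of the members in each of 16 groups, which share arrays) 1 array stood apart in 7 (4.4%), and chance gives about 1 in 20. Foxj1 read 8.02 in TG 40 ppm replicate 2, above 7.05 to 7.30 in the others. Tekt2 read 5.70 in CD-1 air replicate 4, below 6.14 to 6.31. Ccdc153 read 10.30 in TG 40 ppm replicate 2 (others 10.13 to 10.17), 9.87 in TG 120 ppm replicate 4 (others 10.35 to 10.54) and 10.04 in WT 40 ppm replicate 5 (others 9.13 to 9.32). Iqca read 7.77 in CD-1 10 ppm replicate 2, above 6.93 to 7.03. The median of the 39 members stood 0.38 above the air mean in KO air replicate 4, where the others ran from -0.14 to -0.02.

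The average response over the 3 doses differed between strains in limma's test of the difference. Against KO, the WT change was lower for Tekt2 (-1.28), Tppp3 (-0.44), Lrrc23 (-0.88), Ccdc153 (-0.69), Iqca (-0.79) and Dnah6 (-0.76). Against TG it was so for Tekt2 (-1.34), Tppp3 (-0.55), Lrrc23 (-1.04), Stk36 (-0.75), Ccdc153 (-0.83) and Iqca (-1.02). Against CD-1 it was so for Tekt2 (-0.88), Stk36 (-1.02), Lrrc23 (-0.78) and Tppp3 (-0.36). The 3 tests share the WT arrays.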

How the results depend on the processing

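Of 1212 recomputed values of members called against air, 1063 kept their side of the threshold, 149 lost it and none changed sign. For response differences 2287 of 2562 kept it, 275 lost it and none changed sign. For air differences 599 of 692 kept it, 91 lost it and 2 changed sign: Ccdc39 in TG became 0.10 with the mean of all probe sets, and Rfx3 in TG became -0.23 on the deposited scale. Counts of called members that moved by over 1.5 times were as follows. At a fold of at least 1.5, WT 40 ppm gave 8 in place of 16, WT 120 ppm 6 in place of 12, the WT mean 5 in place of 18, WT minus KO 1 at 10 ppm (from 2) and 5 for the mean (from 8), and air differences from WT 1 in KO, 0 in TG (with 13 at an unadjusted p below 0.05 by limma without the fold) and 14 in CD-1 (from 3, 7 and 26). On the deposited scale the air counts were 34 in KO and 33 in TG, all lower, as were 74.6% and 79.6% of all genes. With the mean of all probe sets, 1 member passed between WT 40 and 10 ppm, and 1 in TG at 120 ppm and 1 in the TG mean; the air counts were 1 in KO and 2 in TG. With quantile normalisation WT minus KO at 10 ppm gave 4 (as with array medians subtracted), WT minus CD-1 at 40 ppm gave 2 and TG air 4. With all 80 arrays in 1 fit the CD-1 mean gave 1 (from 0), WT minus KO gave 1 at 10 ppm and 3 at 120 ppm, and WT minus CD-1 at 40 ppm gave 5. The single call between WT 120 and 10 ppm, Rfx2, was lost with no filter, the mean of probe sets, the fold minimum and without the lungs of high Krt5, giving 0 each. The last setting, and Foxj1 as a covariate, were chosen after seeing the data. With Foxj1 as a covariate WT 10 ppm gave 16, WT 40 ppm 26 and WT 40 against 10 ppm 2. Foxj1 is itself a member and followed the others within WT groups (median correlation 0.67). The counts with this covariate are therefore not a separate measure of the fall. With the replicate number as a block, the WT counts were 4, 15, 13 and 17 for 10, 40, 120 ppm and their mean, and no count moved by over 1.5 times. Shares of all tested genes were not computed for these settings, other than on the deposited scale. Why counts moved was not tested, beyond fewer samples or genes where the setting itself makes them so.

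Leaving out 1 array at a time, the counts ran from 3 to 6 in WT at 10 ppm, 10 to 21 at 40 ppm, 8 to 13 at 120 ppm (8 without 120 ppm replicate 5) and 10 to 21 for the mean (10 without air replicate 2, 21 without 40 ppm replicate 5). They ran from 0 to 3 between WT 40 and 10 ppm, 0 to 1 between 120 and 10 ppm, 0 to 1 in TG at 120 ppm and in its mean, and 0 to 1 in CD-1 at 120 ppm. WT minus KO ran from 1 to 4, 6 to 14, 3 to 5 and 6 to 13 (10, 40, 120 ppm and mean), WT minus TG from 2 to 4, 7 to 16, 9 to 22 and 8 to 17, and WT minus CD-1 from 1 to 1, 1 to 6, 2 to 3 and 2 to 7. In air they ran from 2 to 6 in KO, 2 to 14 in TG, 20 to 28 in CD-1 and 2 to 5 between TG and KO. Shares of all tested genes were not computed for the fits that leave out arrays. The median SE of a member's WT change was 0.155, which limits the size of change that could pass.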

Other observations

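In air the distance of CD-1 from WT reached other ciliary genes as well. Of 47 motile cilium genes outside the set 22 were lower in CD-1 and 1 higher, with a median of -0.39 on the median-centred scale. On that log2 scale 15.1% of all genes were lower and 16.5% higher. Of 27 intraflagellar transport genes 12 were lower and 2 higher, with a median of -0.28. Of 14 general epithelial genes 5 were lower and none higher, with 7 at an unadjusted p below 0.05 by limma (4775 of all 11406 genes). Of 18 club cell markers, which fell in WT under styrene, none was lower and 1 was higher, at a median of -0.01. Their part in the difference of the cilium genes was not tested.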
